A study of Mus musculus with 6 samples.

Results

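The genes of the proteasome were followed through a Nop16 knockdown in RAW264.7 cells, macrophage-like mouse cells grown out of a tumour that Abelson leukaemia virus had caused. Members were all protein-coding genes whose symbol is Psma, Psmb, Psmc, Psmd, Psme, Psmf or Psmg with a number and nothing after it. This gave 48 genes of 55401 in the count tables, of which 21897 are protein-coding. The 3 catalytic subunits of the immunoproteasome (Psmb8, Psmb9 and Psmb10) were kept apart from the other 45. Sample titles place 3 libraries under control siRNA, with the genotype given as WT, and 3 under Nop16 siRNA, with the genotype given as Nop16 KD. The treatment field reads "no" in all 6, so no stimulus such as interferon was recorded. The only transfection described, the same text for all 6 libraries, is an siRNA against Nop16 at 20 nM for 3 days, so the agent given to the control cells is not stated and a response to transfection itself cannot be told apart from one to the loss of Nop16. Whether the replicates are separate cultures is not given, and p-values here reflect the spread among these libraries alone, which may be technical.

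The proteasome degrades proteins that carry ubiquitin chains. Its 20S core is a barrel of outer alpha rings and inner beta rings, and the 19S particle that caps it holds ATPases, which unfold substrates, and non-ATPase subunits, which bind and remove ubiquitin. Proteolysis is done by the beta1, beta2 and beta5 subunits, encoded by Psmb6, Psmb7 and Psmb5. In immune cells, and more so after interferon, newly built cores can take Psmb9, Psmb10 and Psmb8 in their place, which changes the peptides made for MHC class I presentation.

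Total counts ran from 19778237 to 23061922 in control libraries and from 15601477 to 18635089 in Nop16 siRNA libraries. Values below are CPM (counts scaled to the library total, with TMM scaling) unless named otherwise. Each log2 fold change sets Nop16 siRNA against control siRNA (positive is higher after Nop16 siRNA) in the quasi-likelihood test of edgeR, and a gene passed at a Benjamini-Hochberg adjusted p below 0.05 over all 14269 genes tested. Nop16 itself stood at 17.7, 18.8 and 20.2 CPM in control libraries and 3.94, 4.15 and 4.56 CPM after its siRNA (log2 fold change -2.16, SE 0.12, edgeR adjusted p = 2.94e-23). All 7 macrophage markers examined were detected, at a summed 4861 to 5149 CPM in control and 7436 to 7820 CPM in Nop16 siRNA libraries. Lyz2 (lysozyme) made up most of that difference, with means of 1144 and 2934 CPM. Cd68, Csf1r and Itgam passed as higher too, Ptprc passed as lower (-0.13, edgeR adjusted p = 0.000172), and Spi1 (-0.02) and Adgre1 (0.005) did not pass. These markers move with the groups in part, and their part in the results below was not tested. The marker lists of B, T or NK, epithelial, fibroblast, dendritic and neutrophil cells each summed to at most 16.7 CPM in any library, and the defining T cell gene Cd3e had no counts. In these bulk samples, fewer cells of a state and less RNA per cell cannot be told apart.

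After Nop16 siRNA the immunoproteasome genes were lower while their constitutive counterparts were higher or did not pass, and genes of the 19S cap leaned upward. Of the 48 members, 46 had enough counts to be tested, and 27 of these passed, 18 higher and 9 lower. Among all genes tested 45.4% passed, 23% higher and 22.4% lower. The 43 tested members outside the immunoproteasome gave 18 higher and 6 lower, and their median was 0.05 on the log2 scale, against -0.0002 over all genes. The 3 control libraries did not overlap the 3 Nop16 siRNA libraries in 25 of the 46 tested members, against 52.5% of all genes tested. Changes were small. The median absolute log2 fold change was 0.13 in the 46 members and 0.21 in all genes, and no member that passed reached 1.5-fold, whereas 10.4% of all genes tested did. Calls are more frequent among abundant genes, and most members are abundant. Of the 36 members with a mean of at least 50 CPM, 20 passed (55.6%), against 68.8% of the 4274 genes at that level.

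**Figure D1:**
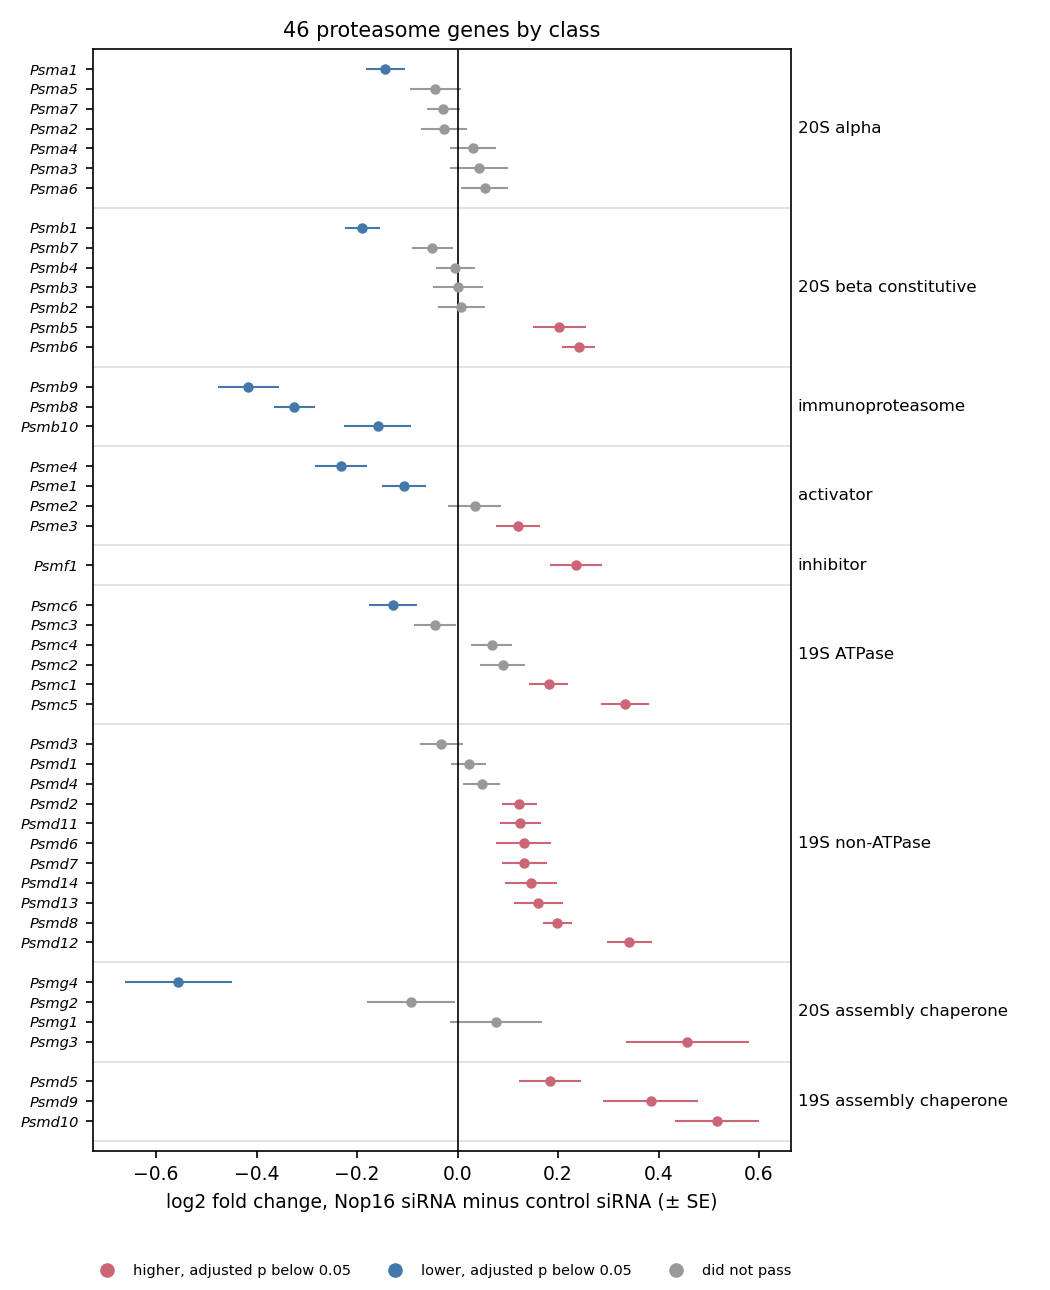
Log2 fold change of the 46 tested members (x axis, Nop16 siRNA minus control siRNA, with SE from edgeR), grouped by class and sorted within each class. Red points passed as higher, blue as lower and grey did not pass. The 3 immunoproteasome genes lie left of 0, and most alpha subunits lie near 0. Of 17 genes of the 19S particle 10 passed as higher, where 23% of all genes tested, whatever their abundance, did.

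Psmb9, the immunoproteasome beta1 subunit, fell most of the 3. It stood at 48.2, 46.4 and 48.8 CPM in control replicates 1 to 3 and at 37.2, 35.4 and 35.0 CPM in Nop16 siRNA replicates 1 to 3. The groups did not overlap (log2 fold change -0.42, SE 0.0607, edgeR adjusted p = 4.38e-08). Psmb9 was also the only immunoproteasome gene that passed when tested against a minimum fold of 1.2 (edgeR adjusted p = 0.012). Of all genes tested, 16.5% passed that test, 7.77% higher and 8.78% lower, and of the 46 members 1 was higher and 2 lower.

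Psmb8, the immunoproteasome beta5 subunit, had 118.3, 123.2 and 119.3 CPM in control libraries and 96.5, 94.7 and 96.9 CPM after Nop16 siRNA. Every control library lay above every Nop16 siRNA library (log2 fold change -0.32, SE 0.0404, edgeR adjusted p = 6.26e-10). Psmb10, the immunoproteasome beta2 subunit, moved least. Its control values were 42.9, 36.5 and 38.0 CPM and its Nop16 siRNA values 34.8, 34.6 and 35.8 CPM, so the lowest control lay just above the highest knockdown library. It passed narrowly (-0.16, SE 0.0668, edgeR adjusted p = 0.0461). The call was lost in DESeq2 (adjusted p = 0.134), limma-voom (0.0512), with a block for the replicate number (0.0512), with no filter (0.0551), with robust dispersion off (0.0569) and without any single library other than control replicate 2. Without control replicate 1, its highest control, the log2 fold change was -0.09 (edgeR adjusted p = 0.351).

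The constitutive partners did not follow. Psmb6, the beta1 subunit that Psmb9 replaces, had 237.1, 230.9 and 239.2 CPM in control and 289.6, 276.6 and 269.8 CPM in Nop16 siRNA libraries. All knockdown libraries were above all controls, a rise of 0.24 on the log2 scale (SE 0.0326, edgeR adjusted p = 6.23e-09). Psmb5, the beta5 subunit, rose from 52.2, 49.2 and 54.3 CPM to 60.6, 59.7 and 58.8 CPM, again with separate groups (0.20, SE 0.0535, edgeR adjusted p = 0.0013). Its count is uncertain, since the processed pseudogene Gm3375 carries a near-identical sequence and multi-mapped fragments were counted for each place they map to. Gm3375 had 90.1% of the count of Psmb5 and a log2 fold change of 0.25 (edgeR adjusted p = 0.000541). Psmb7, the beta2 subunit, had 106.3, 102.0 and 104.3 CPM against 98.7, 99.4 and 103.7 CPM. These groups overlapped, and the gene did not pass (-0.05, SE 0.0415, edgeR adjusted p = 0.346).

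**Figure D2:**
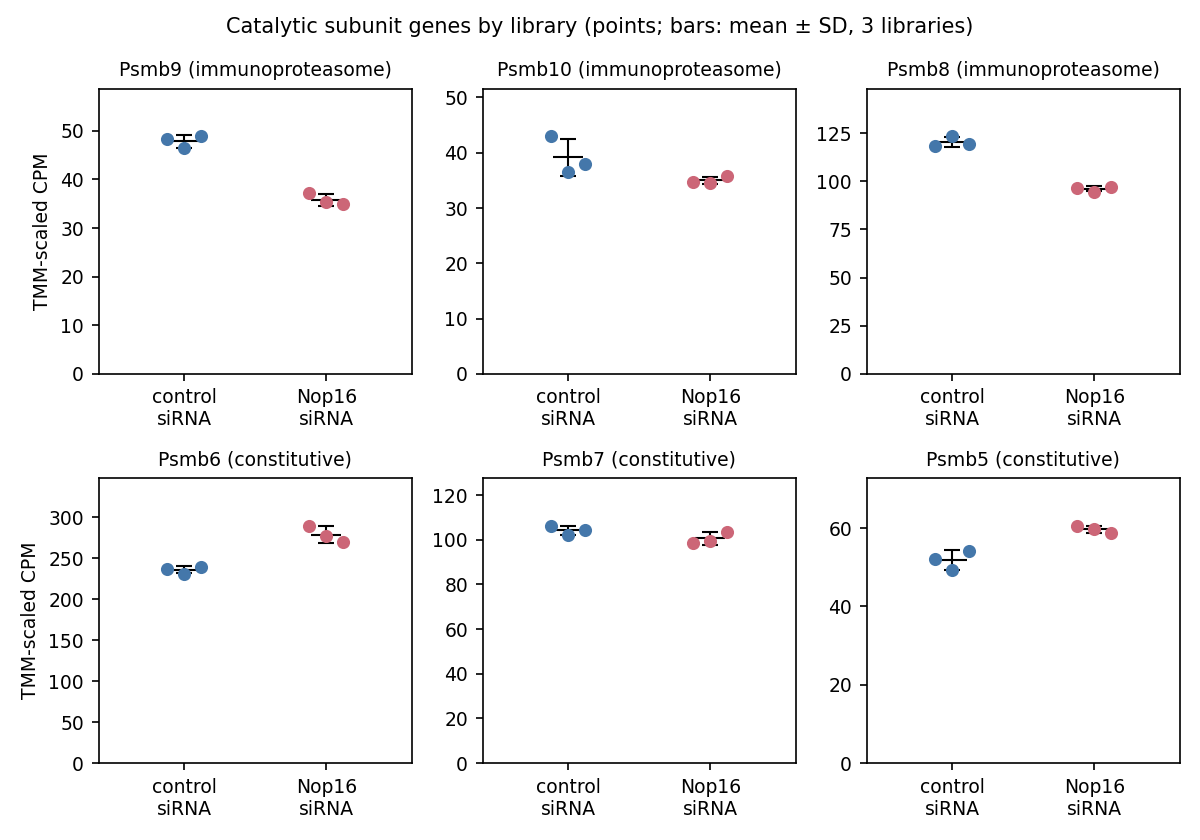
TMM-scaled CPM of the 6 catalytic subunit genes in each of the 3 control siRNA (blue) and 3 Nop16 siRNA (red) libraries, immunoproteasome genes above their constitutive partners, with mean and SD. Psmb9 and Psmb8 fall, Psmb6 and Psmb5 rise, and Psmb7 overlaps between groups.

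Set against its partner within each library, each immunoproteasome gene had a lower share in all Nop16 siRNA libraries than in any control library. In TPM, a level scaled for both gene length and library total, Psmb9 made up 9.43%, 9.32% and 9.46% of the Psmb9 and Psmb6 sum in control libraries and 6.17%, 6.14% and 6.22% after Nop16 siRNA. The Psmb8 share of the Psmb8 and Psmb5 sum was 37.6%, 40.0% and 36.9% in control and 29.8%, 29.6% and 30.5% in Nop16 siRNA libraries. The Psmb10 share of the Psmb10 and Psmb7 sum was 44.8%, 41.8% and 42.2% in control and 41.4%, 41.1% and 40.9% after Nop16 siRNA. For all 3 pairs the groups did not overlap, and the mean difference was -3.23, -8.18 and -1.79 percentage points. The exact two-sided permutation p was 0.1 for each pair, also after adjustment over the 3 pairs, and 0.1 is the smallest that 3 against 3 libraries can give. The Psmb10 shift was -0.866 points without control replicate 1. Such shares do not depend on library scaling, but their level depends on the length assigned to each gene. The Psmb8 share and its shift also rest on the count of Psmb5, which is uncertain because of Gm3375, as given above. With the length of the transcript that has the longest coding sequence, the mean Psmb8 share was 56.1% in control and 47.0% in Nop16 siRNA libraries, the Psmb9 share 10.7% and 7.06%, and the Psmb10 share 24.9% and 23.6%.

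**Figure D3:**
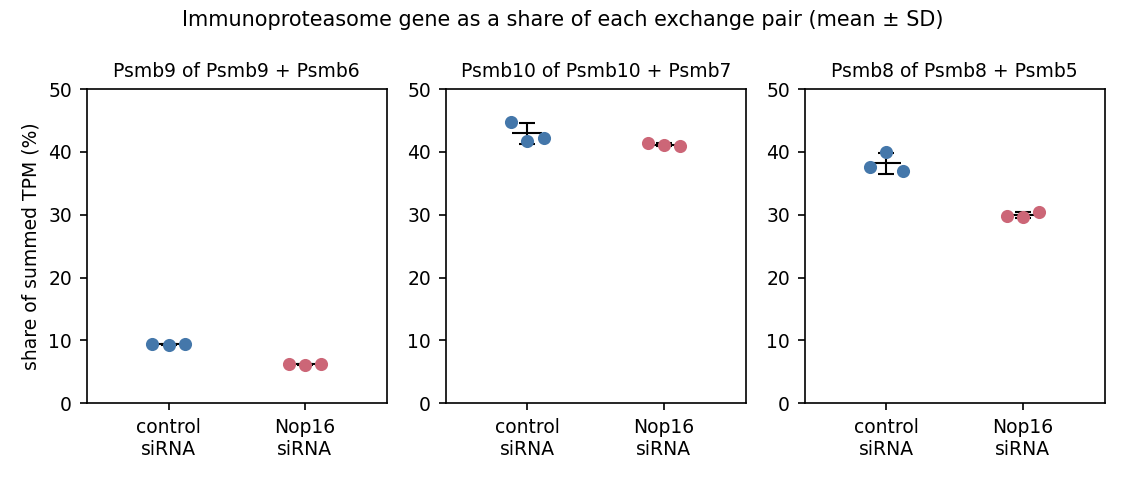
Share of the immunoproteasome gene in the summed TPM of each exchange pair (y axis, percent), by library, with mean and SD of 3 libraries. All Nop16 siRNA points (red) lie below all control points (blue), with the widest gap for Psmb8 and the narrowest for Psmb10.

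Psmb9 and Psmb8 lie beside the genes of the TAP transporter, which carries proteasome products into the endoplasmic reticulum. On GRCm38, Psmb9 occupies chromosome 17 from 34181987 to 34187764 on the minus strand, Tap1 runs from 34187553 to 34197225 on the plus strand, and Psmb8 starts at 34197721 on the plus strand. The Psmb9 and Tap1 models overlap by 212 bases on opposite strands, which the strand-specific counting keeps apart. Tap1 moved like Psmb9. It had 51.3, 54.9 and 58.9 CPM in control and 40.8, 43.5 and 39.6 CPM in Nop16 siRNA libraries, with no overlap (-0.41, SE 0.0591, edgeR adjusted p = 2.7e-08). The RefSeq start sites of Psmb9 and Tap1 are 226 bases apart, so the stretch between them lies upstream of both start sites. It is shown here because these neighbours on opposite strands had nearly equal changes. The window of 250 bases before to 50 bases after the Psmb9 start (chr17:34187281-34187580, GRCm38.p6, minus strand, written 5′ to 3′ for Psmb9) reads as follows, with a CCAAT match on the reverse strand in capitals.
Psmb9: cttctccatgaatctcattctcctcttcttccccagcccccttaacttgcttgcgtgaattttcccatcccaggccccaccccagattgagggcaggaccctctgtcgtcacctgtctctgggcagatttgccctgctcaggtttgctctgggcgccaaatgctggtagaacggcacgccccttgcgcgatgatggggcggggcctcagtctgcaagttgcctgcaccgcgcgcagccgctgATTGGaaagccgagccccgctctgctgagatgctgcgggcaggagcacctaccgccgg
No match to a short form of the interferon regulatory factor motif (GAAA, any 2 bases, GAAA) or of the NF-kB motif (GGGA, any 4 bases, CC) was found on either strand of this window. The first occurs in 3.99% and the second in 22.9% of the promoter windows of 27025 genes, and CCAAT in 41.1%. In windows of the 9444 tested genes these shares were 3.91%, 29.9% and 43.3%. Of the 40 member windows found, 5 held the first (12.5%), 9 the second (22.5%) and 14 CCAAT (35%). The 5 were those of Psmb3, Psmd4, Psmd9, Psme1 and Psmg4. Differences between these shares were not tested.

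Several other genes of class I processing were lower. Of 11 such genes tested, 5 were lower and 1 higher, with a median of -0.16. Among all genes tested 22.4% passed as lower and 23% as higher. In either direction 54.5% of the 11 passed, against 45.4% of all genes tested. Besides Tap1, the class I heavy chain genes H2-D1 (-0.26, from 2220 ± 98.1 to 1855 ± 74.5 CPM, SD, n = 3 each) and H2-K1 (-0.17), the trimming peptidase gene Erap1 (-0.17) and Tap2 (-0.16) fell. H2-D1 and H2-K1 are close paralogs, so their separate counts are uncertain. Their light chain gene B2m did not pass, at 1019 ± 11.2 and 1032 ± 1.42 CPM. None of the interferon-linked regulators Irf1, Irf8 and Nlrc5 passed. Irf1 had 31.9, 35.0 and 33.0 CPM in control and 38.8, 34.3 and 34.9 CPM in Nop16 siRNA libraries and did not pass (0.11, SE 0.0686, edgeR adjusted p = 0.195). Nlrc5, the transactivator of class I genes, missed the threshold (-0.18, edgeR adjusted p = 0.0727). In edgeR it passed without Nop16 siRNA replicate 1 (adjusted p = 0.0401), with library size only (0.0417) and with protein-coding genes only (0.0486).

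The remaining 20S genes were nearly level. Of the 7 alpha subunits tested, Psma1 alone passed, falling from 135.8, 139.5 and 134.8 CPM to 118.7, 128.0 and 124.4 CPM (-0.14, SE 0.0383, edgeR adjusted p = 0.00144). The other 6 had log2 fold changes between -0.04 (Psma5) and 0.05 (Psma6), none larger than 0.0538 in size, with standard errors of 0.0329 to 0.0583. Among the beta subunits without a replacement, Psmb1 fell from 191.7, 200.9 and 197.6 CPM to 171.5, 176.9 and 169.3 CPM, with separate groups (-0.19, SE 0.0345, edgeR adjusted p = 5.71e-06). Psmb2 (0.01), Psmb3 (0.00) and Psmb4 (-0.00) did not pass. Psma8, a testis form of an alpha subunit, and Psmb11, the thymus beta subunit, had 0 counts in all 6 libraries, which allows at most 0.13 to 0.192 CPM (3 counts per library, counting error only). Genes of subunits that share a ring were not at like levels. In control libraries alpha subunit genes ran from 23.4 TPM (Psma3) to 153 TPM (Psma7) and constitutive beta genes from 61.7 TPM (Psmb7) to 255 TPM (Psmb6). The lengths behind these TPM are the merged exons of all transcripts of a gene, which lowers genes with many annotated forms.

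The 19S particle leaned upward. Of its 17 subunit genes 10 passed as higher and 1 as lower, and the median log2 fold change was 0.13. Over all genes tested 23% passed as higher and 22.4% as lower. These 17 are abundant, with control means from 60.25 to 396.5 CPM. In either direction 64.7% of them passed, no more than the 68.8% among all genes averaging 50 CPM or above. How those abundant genes split between higher and lower was not examined, so the lean is set against all genes only. Psmd12, a scaffold subunit of the lid, rose most. It had 74.7, 74.6 and 74.2 CPM in control libraries and 91.2, 93.2 and 98.7 CPM after Nop16 siRNA, with wide separation (0.34, SE 0.0452, edgeR adjusted p = 3.46e-09). Psmc5, an ATPase of the base ring, rose from 82.4, 75.1 and 81.1 CPM to 107.9, 94.7 and 98.2 CPM (0.33, SE 0.047, edgeR adjusted p = 2.49e-08). Its groups were likewise apart.

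Psmd8, the most abundant member, went from 397.5, 395.6 and 396.5 CPM to 460.1, 451.3 and 453.2 CPM (0.20, SE 0.0289, edgeR adjusted p = 4.55e-08). Psmc1, another ATPase, rose by 0.18. Psmd2, a base scaffold that docks shuttle receptors (0.12), Psmd11 (0.13), Psmd7 (0.13) and Psmd13 (0.16) passed too, as did Psmd14, the deubiquitinase of the lid (0.15), and Psmd6 (0.13). The calls of Psmd6, Psmd7, Psmd13 and Psmd14 were each lost without at least 1 library, with control replicate 3 among them for Psmd6 (edgeR adjusted p = 0.319), Psmd13 (0.0614) and Psmd14 (0.119), and control replicate 2 for Psmd7 (0.0722). Psmd14 was also lost without Nop16 siRNA replicate 1 (0.133). Leaving out control replicate 2 (0.124) or, from the knockdown group, replicate 1 (0.149) or replicate 2 (0.12) also ended the Psmd6 call, as did DESeq2 (adjusted p = 0.135). In edgeR the Psmd6 call was lost too with library size only (adjusted p = 0.0997), no filter (0.06), robust dispersion off (0.0534) and protein-coding genes only (0.0571). The Psmd6 groups overlapped. Psmd14 did not pass in DESeq2 (adjusted p = 0.0603). Psmc6 was the ATPase that fell, from 82.6, 84.7 and 77.1 CPM to 71.6, 77.6 and 74.6 CPM. Its groups overlapped, and its call (-0.13, edgeR adjusted p = 0.0238) was lost in DESeq2 (adjusted p = 0.0821) and when control replicate 1 (0.0755) or 2 (0.146), or knockdown replicate 1 (0.114) or 3 (0.0559), was left out. The ubiquitin receptor Psmd4 (0.05), Psmd1 (0.02), Psmd3 (-0.03), Psmc2 (0.09), Psmc3 (-0.04) and Psmc4 (0.07) did not pass.

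Activators that cap the core in place of the 19S particle moved in different directions. Psme4, which encodes PA200, a nuclear activator, fell from 68.2, 71.8 and 67.1 CPM to 55.8, 62.5 and 58.2 CPM (-0.23, SE 0.0515, edgeR adjusted p = 0.000154), and its groups were separate. The interferon-inducible PA28 genes differed from each other in call. Psme1, for PA28 alpha, had 110.4, 102.4 and 108.8 CPM against 93.4, 99.0 and 105.9 CPM and passed as lower with overlapping groups (-0.11, SE 0.0438, edgeR adjusted p = 0.0427). That call was lost in DESeq2 (adjusted p = 0.133), in limma-voom (0.0522), with robust dispersion off (0.0511) and when control replicate 1 or 3, or knockdown replicate 1 or 2, was left out (edgeR adjusted p of up to 0.275). The log2 fold change of Psme1 was -0.06 without Nop16 siRNA replicate 1.

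Psme2, for PA28 beta, had 56.2, 54.0 and 57.0 CPM against 56.7, 55.5 and 58.9 CPM and did not pass (0.03, SE 0.0528, edgeR adjusted p = 0.633). Its count is shared in part with Psme2b, a near-identical gene with 42.7% of its count. The difference between Psme1 and Psme2 was not tested. Psme3, the nuclear PA28 gamma, had 101.4, 107.5 and 95.2 CPM against 115.5, 103.3 and 112.1 CPM. It passed as higher with overlapping groups (0.12, SE 0.0446, edgeR adjusted p = 0.0231). The Psme3 call was lost in DESeq2 (adjusted p = 0.0824) and in edgeR with library size only (adjusted p = 0.0688). Leaving out control replicate 1 (0.0549) or 3 (0.196), or knockdown replicate 1 (0.134) or 3 (0.0948), also ended it. Psmf1, the PI31 protein that binds the core and inhibits it in vitro, rose from 52.1, 58.1 and 55.2 CPM to 65.3, 64.8 and 64.8 CPM, with no overlap (0.24, SE 0.0521, edgeR adjusted p = 0.000139).

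The 3 largest changes among tested members were in assembly chaperones, whose genes ran from 3.87 TPM (Psmd9) to 55.3 TPM (Psmg4) in control libraries. The 3 members that act as chaperones of the 19S base passed as higher, where 23% of all genes tested did. Paaf1, another chaperone of the base, was not matched to a gene here and is no member. Psmd10 (gankyrin) rose 1.43-fold, from 17.8, 16.3 and 18.2 CPM to 23.8, 25.6 and 25.3 CPM, with separate groups (log2 fold change 0.52, SE 0.083, edgeR adjusted p = 4.26e-07). Psmd9 rose by 0.38 and Psmd5 by 0.18. The Psmd5 call was lost in DESeq2 (adjusted p = 0.0503) and without control replicate 3 (0.0751) or Nop16 siRNA replicate 3 (0.141).

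Psmg3 and Psmg4, which work as a pair on the 20S alpha ring, went in opposite directions. Psmg4 fell from 16.05, 13.25 and 16.13 CPM to 10.1, 10.8 and 9.94 CPM (-0.56, SE 0.107, edgeR adjusted p = 1.4e-05). Psmg3 rose from 7.34, 7.87 and 7.59 CPM to 10.6, 10.1 and 10.6 CPM (0.46, SE 0.122, edgeR adjusted p = 0.00152), and for each gene the groups were separate. Psmg3 shares 9.68% of its exon length with the gene model Gm26938, which itself had a log2 fold change of 0.54, so its count is uncertain. The other pair, Psmg1 (0.08, SE 0.0914) and Psmg2 (-0.09, SE 0.0878), did not pass. Pomp, the maturation factor of the core, is no member by symbol. It rose from 46.8, 44.8 and 39.3 CPM to 51.4, 48.2 and 52.0 CPM (0.21, SE 0.0604, edgeR adjusted p = 0.00319), a call lost without control replicate 3 (0.0746).

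Levels were also summed over a class. The 3 immunoproteasome genes summed to 145 ± 2.18 TPM in control and 123 ± 0.505 TPM in Nop16 siRNA libraries (SD, n = 3 each), and the 17 genes of 19S subunits to 1339 ± 15.2 and 1521 ± 23.1 TPM. For the 15 genes of the constitutive 20S core the sums were 1518 ± 5.24 and 1608 ± 19.3 TPM, but their share of all counts was 0.166% in control and 0.164% after Nop16 siRNA. The direction for that core turned with the scale. TPM itself moved the median of all tested genes by 0.04 on the log2 scale. In each of these 3 classes the summed TPM of the groups did not overlap, and the exact two-sided permutation p was 0.1, the smallest possible (0.109 after adjustment over 12 sums).

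Most genes of a list of transcription factors that act on proteasome genes, their partners and a processing enzyme were higher. Of the 7 genes, 6 passed as higher and none as lower, with a median of 0.33, where 23% of all genes tested passed as higher. Bach1, a repressor that competes for the same sites, did not pass (0.06, edgeR adjusted p = 0.378). Nfe2l1, the factor that raises proteasome genes when proteasome activity falls, went from 374.9, 379.1 and 373.7 CPM to 402.3, 402.6 and 413.8 CPM (0.11, SE 0.0294, edgeR adjusted p = 0.00121). Nfe2l2, the oxidative stress factor NRF2, rose by 0.41 from 208 ± 4.35 to 277 ± 4.82 CPM (SD, n = 3 each). The small Maf partners Mafg (0.26), Mafk (0.34) and Maff (0.97, from 3.1 ± 0.997 to 6.06 ± 1.62 CPM) and Ngly1, the glycanase that activates the Nfe2l1 protein (0.33), also rose. Ddi2, the protease that cleaves that protein, fell by 0.12 on the log2 scale.

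The antioxidant response element bound by Nfe2l1 and Nfe2l2 with small Maf proteins was searched as TGACNNNGC on both strands. Promoter windows were found for 40 of the 48 members, and 6 held a match (15%), against 17% of the 9444 tested genes with a window. The 6 were Psmb5, Psmb6, Psmd9 and Psmd12, which rose, and Psmc6 and Psme4, which fell. The windows of Psmb5 (chr14:54617946-54618245, minus strand) and Psmb6 (chr11:70525107-70525406, plus strand), from RefSeq on GRCm38.p6, are shown because both catalytic genes rose while their immunoproteasome partners fell. Capitals mark the match, which begins 47 bases before the start site of Psmb5 and 9 bases before that of Psmb6.
Psmb5: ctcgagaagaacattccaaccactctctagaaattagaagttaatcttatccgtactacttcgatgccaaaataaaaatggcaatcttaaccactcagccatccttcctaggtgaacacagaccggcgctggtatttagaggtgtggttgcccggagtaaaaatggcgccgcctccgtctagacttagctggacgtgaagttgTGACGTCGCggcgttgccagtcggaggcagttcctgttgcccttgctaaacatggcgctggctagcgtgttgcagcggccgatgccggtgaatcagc
Psmb6: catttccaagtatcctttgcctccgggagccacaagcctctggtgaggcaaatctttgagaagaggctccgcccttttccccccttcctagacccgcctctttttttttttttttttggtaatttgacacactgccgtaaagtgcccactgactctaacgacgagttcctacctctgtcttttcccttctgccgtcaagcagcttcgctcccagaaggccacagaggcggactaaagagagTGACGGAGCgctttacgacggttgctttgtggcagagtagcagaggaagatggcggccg
These matches are descriptions of sequence, and no binding was measured. CCGGAAG, a form of the ETS motif, occurred in 14 of the 40 member windows (35%) and in 21.4% of the windows of tested genes.

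**Figure D4:**
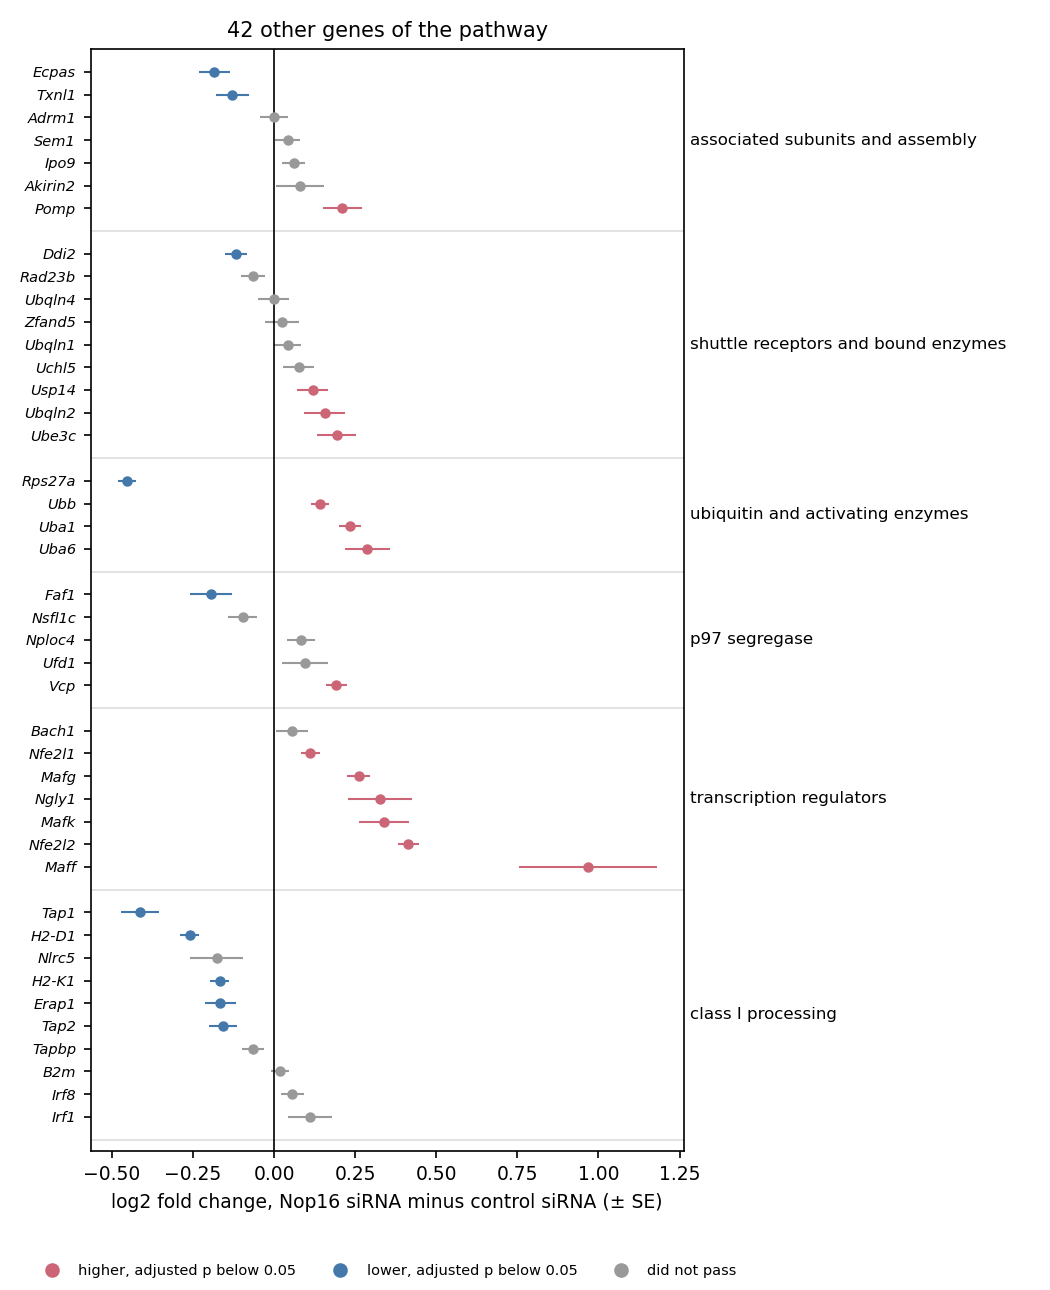
Log2 fold change (x axis, with SE from edgeR) of 42 genes that work with the proteasome, by list. Red passed as higher, blue as lower and grey did not pass. The 7 genes listed as transcription regulators lie right of 0, while Rps27a lies left of 0 and Ubb right of 0 among ubiquitin genes.

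Over all 46 other pathway genes, the regulators and class I genes included, 16 passed as higher and 12 as lower, against 23% and 22.4% of all genes tested. Genes of the ubiquitin, p97 and shuttle lists passed in both directions. The polyubiquitin gene Ubb (0.14) rose, as did the ubiquitin-activating enzyme genes Uba1 (0.23) and Uba6 (0.29). Rps27a, which encodes ubiquitin fused to a ribosomal protein, stood at 705 ± 16.5 CPM in control and 515 ± 7.16 CPM in Nop16 siRNA libraries (SD, n = 3 each) and passed as lower (-0.45). It has processed pseudogenes, and with multi-mapped fragments counted its values are uncertain. Vcp, the p97 segregase that extracts ubiquitinated proteins, rose by 0.19, and its cofactor Faf1 fell by 0.20, a call lost without control replicate 3 (edgeR adjusted p = 0.0557) or knockdown replicate 1 (0.111). Of 10 shuttle receptors and proteasome-bound enzymes, 3 were higher, led by the ubiquitin ligase gene Ube3c (0.19), and 2 lower, among them Ddi2 as given above. Of 7 associated subunits and assembly genes, Pomp was higher, and Ecpas (-0.18) and Txnl1 (-0.13) were lower. The Txnl1 call was lost in DESeq2 (adjusted p = 0.0957) and when replicate 1 or 2 of either group was left out (edgeR adjusted p of up to 0.13). The intrinsic 19S subunits Adrm1 (0.00) and Sem1 (0.04) did not pass.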

How the data were processed

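Poly(A)-selected RNA from 6 cell line samples was sequenced with a directional kit, per the labels' protocols. Per the file headers, the authors ran featureCounts 2.0.1 with Ensembl 101 models of GRCm38, and the deposited unit is the unnormalized fragment count of each gene. Strand was set to 2, fragments had to overlap a gene by 10 bases, both ends had to be mapped and chimeric pairs were dropped. The headers also record that multi-mapped fragments, and fragments over several genes, were counted for each gene. Copies and overlapping models thus inflate counts. The submitters' processing notes list Trim Galore and HISAT2 2.2.1.

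Symbols and biotypes came from GENCODE release 21 for mouse (GRCm38), with symbols for 55141 of 55401 identifiers. Of 47 pathway genes listed, 46 were matched. Counts were fitted on the whole table with edgeR 4.0.16 in R 4.3.3 (filterByExpr, TMM, robust quasi-likelihood F test). Each SE was taken as the absolute log2 change over the square root of F. TPM used the deposited gene length. Near-identical copies (95% identity over 100 bases) were found with BLAST 2.17.0 and exon overlap with bedtools 2.31.1. On simulated counts for this comparison (14312 genes), the test recovered 74% of genes changed 1.2-fold and 96% at 1.5-fold, with 5 false calls of 190. The changed genes, 50 at each fold, had at least 5 CPM, and all genes were given a common dispersion. In the data 45.4% of genes passed, so these rates may not carry over.

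Counts of replicates were compared by chi-square, which came to 2.46 to 3 per degree of freedom, above sampling noise in every pair. The labels give no batch. Members, classes and lists were chosen with earlier results of these data known. Named genes are the catalytic subunits and activators, members past a log2 fold change of 0.5, and the largest rise and fall in each class. For other lists they are up to 4 changed genes and 5 fixed ones. Further members are given by value for completeness, and some listed genes, counted in their lists, are not reported here. Alternatives were other scalings and filters, DESeq2 1.42.0, limma-voom (limma 3.58.1), robust dispersion off, a replicate block, a minimum fold of 1.2 and leaving out each library.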

Additional observations from a re-analysis of the deposited data

How the results depend on the processing

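Over 16 alternative settings no member that passed changed direction, and no member outside the calls gained one. Of the 27 members that passed, 18 kept their call in every setting except the minimum fold, and the other 9 (Psmb10, Psmc6, Psmd5, Psmd6, Psmd7, Psmd13, Psmd14, Psme1 and Psme3) lost it in at least 1 other setting. Against a minimum fold of 1.2, 1 immunoproteasome gene (Psmb9) was lower, 1 other member (Psmd10) was higher and 1 (Psmg4) was lower. Of the other pathway genes, 2 were then higher and 3 lower. Without each library in turn, 13 to 17 members outside the immunoproteasome were higher and 4 to 5 lower. With a replicate block these were 18 and 6, as in the fit without it, and Psmb10 was the member whose call the block ended. Deviations from the group means correlated at 0.0175, -0.0198 and -0.0223 between same-numbered libraries. Between differently numbered libraries the range was -0.015 to 0.036. Counting error of low genes enters these values, so they cannot exclude a shared culture day or batch. The Psmb9 share of its pair differed by -5.47 percentage points in raw counts and by -3.64 with transcript lengths. The sum of a class depends on its unit. From TPM to share of counts, the log2 ratio of Nop16 siRNA to control became -0.0521 from 0.0231 for 20S alpha genes, -0.0565 from 0.0316 for activators and -0.0155 from 0.0834 for the constitutive 20S core, so these directions turn. For the other sums the share of counts gave 0.069 for 19S ATPases, 0.108 for 19S non-ATPases, 0.0976 for all 19S subunits, 0.287 for 19S chaperones, -0.0823 for 20S chaperones, 0.0134 for constitutive beta genes, 0.215 for the inhibitor and 0.0291 for all members, and -0.335 for immunoproteasome genes against -0.242 in TPM. The median gene shifted by 0.04 (log2) in TPM and by -0.02 in share of counts. Protein-coding genes only and transcript lengths were chosen after the data were seen.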

Other observations

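Symbols that begin like a proteasome gene but go on after the number were left out of the members. Psmc3ip, which encodes a meiotic recombination cofactor that binds a 19S ATPase, fell from 11.8 ± 0.432 to 9.09 ± 0.36 CPM (SD, n = 3 each; log2 fold change -0.38, edgeR adjusted p = 0.0044). Psme2b stood at 24.3 ± 1.28 and 23.8 ± 1.68 CPM and did not pass. The processed pseudogene Psmb6-ps2 had 5.23 ± 0.772 and 6.34 ± 1.16 CPM and did not pass (edgeR adjusted p = 0.146). Besides the copies named above, Gm13835 had 52.4% of the count of Psma3, the gene model Gm21972 25% of that of Psmd1, and the pseudogenes of Psma5 and Psmb3 up to 11.8% of theirs.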
